A study of Mus musculus with 60 samples.

Results

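The genes described here are those of the constitutive proteasome: every gene whose symbol is Psma, Psmb, Psmc or Psmd followed by a number, leaving out Psmb8, Psmb9 and Psmb10, the catalytic subunits of the immunoproteasome. The rule used names only, with no measured value, and it found 36 of the 55414 genes in the count table. They comprise 8 genes of the alpha ring, 8 of the beta ring, 6 base ATPases, 3 non-ATPase subunits of the base, 8 subunits of the lid and 3 assembly chaperones that carry a Psmd symbol. Counts were high enough to test 34 of them in most comparisons. The remaining pair, the testis-type alpha subunit Psma8 and the thymus-type catalytic subunit Psmb11, were near 0, and Psma8 was tested only where the anti-IL-2 libraries of the knockout took part.

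The proteasome is the protease that degrades proteins tagged with ubiquitin. Its barrel-shaped core particle holds the peptide-cutting subunits inside 2 rings of beta subunits, closed at each end by a ring of alpha subunits, and the regulatory particle on top recognises ubiquitin, removes it, unfolds the substrate with a ring of ATPases and feeds it into the core. In lymphocytes the 3 catalytic beta subunits can be exchanged for the immunoproteasome subunits, which change the peptides made for presentation on MHC class I. Naive T cells are quiescent, and stimulation through the T cell receptor starts growth, protein synthesis and division.

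The libraries came from naive CD8 T cells taken from the spleens of NOD mice by negative selection. All mice carried the OT-I T cell receptor transgene and were either Sh2b3+/+ (wild type) or Sh2b3-/- (knockout); Sh2b3 encodes an adaptor protein that restrains cytokine receptor signalling. Cells were collected unstimulated at 0 h (11 libraries per genotype), after 2 h or 6 h of stimulation (5 each), after 24 h (5 each), or after 24 h with a blocking anti-IL-2 antibody (4 each). Stimulation was by plate-bound anti-CD3 at 10 µg/mL and soluble anti-CD28 at 5 µg/mL, and anti-IL-2 was used at 10 µg/mL. The labels do not say which libraries came from separate mice or cultures, and p-values therefore speak only of the variation among libraries, which may be technical. They also do not say how the Sh2b3 allele was made.

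The 60 libraries held 13987029 to 35476519 counted reads, with a median of 17994613. Sh2b3 ranged from 7.57 to 31.4 CPM (reads scaled to library size) in the knockout libraries and from 64.6 to 171 CPM in the wild-type ones, without overlap, so the target gene was lower, though not at 0, in every library labelled knockout. The CD8 T cell markers Cd8a, Cd8b1, Cd3d, Cd3e, Cd3g, Trac and Lck were all present at 176 CPM or more, and Cd4 did not exceed 1.77 CPM. Library names fall into 4 numbered series, here called sets A (0, 2 and 6 h), B and C (0 and 24 h) and D (every anti-IL-2 library), so that anti-IL-2 and set D cannot be told apart. The summed CPM of the 5 B cell markers was 22.3 to 38.5 in wild type at 0 h, 5.44 to 10.96 at 2 h, 9.44 to 18.1 at 6 h and 14.6 to 64.1 at 24 h, and that of the 7 CD8 T cell markers was 5355 to 6216, 2660 to 2925, 2651 to 2818 and 2434 to 3763. Both moved with time, and their part in the time differences described next was not tested. The summed CPM of the erythroid markers was 10.3 to 77.3 in wild type and 9.55 to 143 in the knockout at 0 h. At 24 h it was 3.16 to 126 and 5.94 to 155, and with anti-IL-2 2.41 to 17.4 and 9.03 to 28.8. The dendritic cell and MHC class II markers summed to as much as 62.9 CPM, in wild type at 24 h. What part these markers had in any comparison was not tested either. In bulk libraries fewer cells of a type and less RNA per cell cannot be told apart, and CPM are shares of a library, not amounts per cell.

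Constitutive proteasome transcripts took a growing share of the library after stimulation, and by 24 h every one of the 34 tested genes was higher than at 0 h in both genotypes. The summed level of the 36 genes was 2839 ± 146 CPM (SD, n = 11) in unstimulated wild-type cells, with a lowest library of 2579 and a highest of 3032. It was 3499 ± 251 CPM (n = 5) at 2 h, 3898 ± 295 (n = 5) at 6 h and 5163 ± 642 (n = 5) at 24 h, which is 1.23, 1.37 and 1.82 times the 0 h mean. The lowest library at each of these times, at 3286, 3551 and 4450 CPM, was above the highest library at 0 h. In the knockout the sum went from 2768 ± 213 CPM (n = 11) to 3257 ± 302, 3729 ± 774 and 5480 ± 542 (n = 5 each), and its groups at 0 h and at 2 and 6 h overlapped. The knockout libraries at 6 h were spread more widely than any other group, from 2847 to 4611 CPM.

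**Figure D1:**
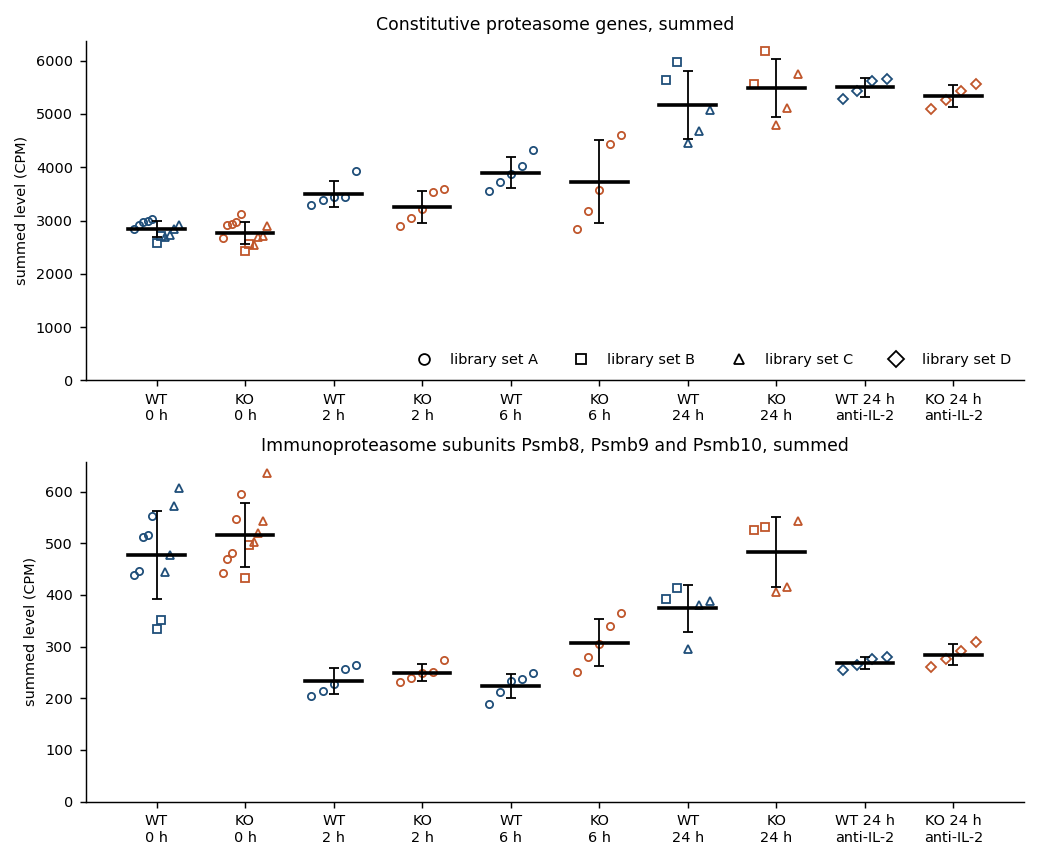
Summed level per library, in CPM, of the 36 constitutive proteasome genes and of the 3 immunoproteasome genes, by group; each point is 1 library, its shape the library set, and bars are mean and SD. The constitutive sum is between 2436 and 3115 CPM in all unstimulated libraries and between 4450 and 6184 CPM in all 24 h libraries without or with anti-IL-2, while the immunoproteasome sum is lowest at 2 and 6 h in wild type.

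Each gene was then tested with edgeR's quasi-likelihood test, with Benjamini-Hochberg adjustment over all genes of the comparison and a threshold of 0.05; the library set was a term in the fits across time, and all time comparisons of a genotype share its 0 h libraries. In wild type at 2 h, 20 of the 34 tested members rose and 3 fell, where 30.3% of all genes tested rose and 33.3% fell. At 6 h 26 rose and 2 fell, beside 28.5% and 28.2% of all genes, and at 24 h all 34 rose and none fell, beside 29.2% and 30.1%. The median log2 difference from 0 h over the members was 0.25, 0.51 and 1.01 at 2, 6 and 24 h, while that of all genes was -0.06, -0.01 and -0.05. Groups did not overlap, with the later time higher, for 12, 20 and 28 members, beside 20.1%, 15.8% and 16.3% of all genes. The size was moderate: 3, 11 and 29 members rose by 1.5-fold or more, as did 17.2%, 16.4% and 20.7% of all genes. Within library sets, the median at 24 h was 1.19 in set B (2 libraries a group) and 0.78 in set C (3 against 4 libraries).

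In the knockout at 2 h 16 of 34 members rose and 3 fell (28.4% and 29.2% of all genes), at 6 h 20 rose and none fell (23.2% and 23.1%), and at 24 h all 34 rose (30.5% of all genes rose, 30.3% fell). The medians were 0.17, 0.44 and 1.19 on the log2 scale, beside -0.06, -0.00 and -0.06 for all genes. Groups did not overlap, with the later time higher, for 9, 8 and 30 members, beside 17.6%, 9.83% and 17.7% of all genes. Set B gave a median of 1.28 and set C 0.99 at 24 h.

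**Figure D2:**
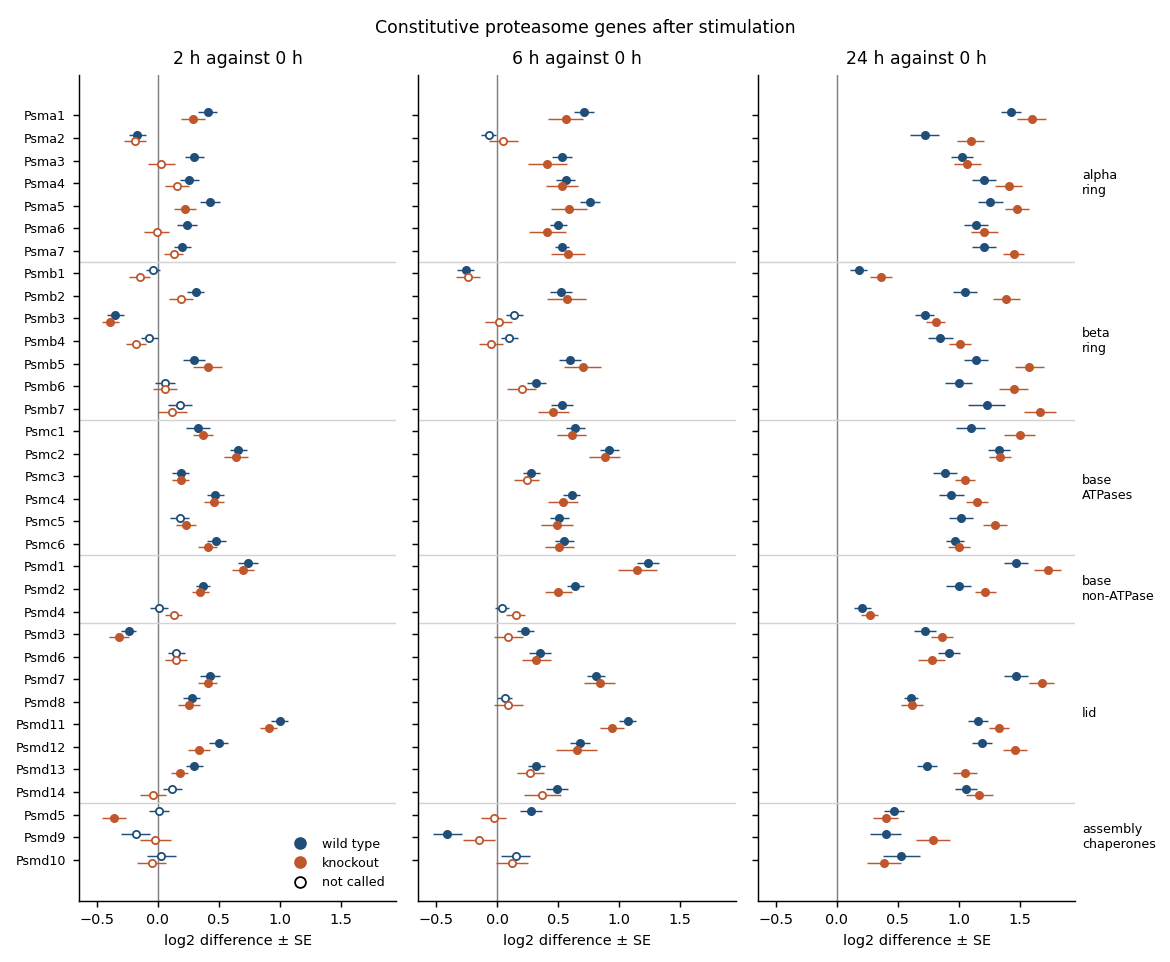
Log2 difference from 0 h of each tested constitutive proteasome gene at 2, 6 and 24 h, ordered by its place in the complex; points are edgeR estimates with their standard errors, wild type in blue and knockout in orange, and open points did not pass an adjusted p of 0.05. At 2 h estimates in wild type run from -0.35 (Psmb3) to 1.0 (Psmd11), and at 24 h all are above 0, from 0.18 (Psmb1) to 1.47 (Psmd1 and Psmd7).

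The base of the regulatory particle held Psmd1, whose 6 h difference was the largest of any member in both genotypes. Psmd1, a large scaffold subunit of the base, was at 58.2, 68.4 and 89.0 CPM (lowest, median and highest of 11) in wild type at 0 h. In replicates 1 to 5 it was at 127, 130, 120, 165 and 118 CPM at 2 h, at 152, 158, 197, 220 and 173 CPM at 6 h, and at 138, 161, 140, 216 and 219 CPM at 24 h. Every stimulated library was above every unstimulated one, and the log2 difference was 0.74 ± 0.08 (SE; adjusted p = 6.7e-09) at 2 h, 1.24 ± 0.09 (adjusted p = 7.5e-13) at 6 h and 1.47 ± 0.10 (adjusted p = 2.8e-11) at 24 h. In the knockout Psmd1 was at 50.7, 67.2 and 78.5 CPM at 0 h, at 124, 129, 124, 106 and 99.9 CPM at 2 h, at 116, 205, 200, 157 and 103 CPM at 6 h, and at 209, 148, 213, 229 and 179 CPM at 24 h. It again had no overlap with 0 h, and rose by 0.70 ± 0.09, 1.15 ± 0.16 and 1.73 ± 0.11 on the log2 scale. Psmd2, the base subunit that docks ubiquitin-carrying shuttle proteins, rose by 0.37, 0.64 and 1.0 in wild type, and by 0.35, 0.50 and 1.22 in the knockout.

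The third non-ATPase subunit of the base, the ubiquitin receptor Psmd4, moved little. It was at 99.8, 118 and 123 CPM in wild type at 0 h and at 129, 117, 152, 123 and 123 CPM at 24 h, so the groups overlapped, and its log2 difference was 0.21 ± 0.07 (adjusted p = 0.0187). In the knockout it was at 97.0, 115 and 130 CPM at 0 h and at 136, 135, 138, 129 and 129 CPM at 24 h, a difference of 0.27 ± 0.07 (adjusted p = 0.00325). The wild-type call was lost without replicate 3 at 24 h (adjusted p = 0.0908) and with sets B and C alone (0.0680), and both were lost when no low-count filter was used (adjusted p = 0.138 and 0.0587).

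All 6 base ATPases, which form the ring that unfolds substrates, rose in wild type at 6 and 24 h, and 5 of them, all but Psmc5, rose at 2 h; their medians were 0.40, 0.58 and 1.0. In the knockout 6, 5 and 6 rose, with medians of 0.39, 0.52 and 1.22. Psmc2 had the largest early difference among them. It was at 57.9, 64.7 and 69.7 CPM in wild type at 0 h, at 103, 99.5, 101, 120 and 104 CPM at 2 h, at 107, 103, 136, 138 and 126 CPM at 6 h, and at 138, 129, 157, 159 and 181 CPM at 24 h. No stimulated library reached down to the 0 h range, and the log2 differences were 0.66 ± 0.07 (adjusted p = 1.5e-09), 0.92 ± 0.08 (4.1e-11) and 1.33. Psmc2 in the knockout was at 57.0, 61.8 and 70.6 CPM at 0 h, at 91.2, 109, 125, 91.9 and 80.8 CPM at 2 h, and at 90.4, 133, 153, 114 and 84.7 CPM at 6 h. It rose by 0.64 ± 0.10 at 2 h and 0.88 ± 0.13 at 6 h there, again without overlap.

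In the lid, the largest early difference was that of Psmd11, a subunit that clamps the regulatory particle to the core. Psmd11 was at 71.1, 77.3 and 96.9 CPM in wild type at 0 h and already at 139, 153, 149, 160 and 148 CPM at 2 h. It stayed near there, at 141, 137, 159, 168 and 156 CPM at 6 h and at 196, 191, 166, 172 and 182 CPM at 24 h. Its log2 difference was 1.0 ± 0.07 (adjusted p = 1.5e-13) at 2 h, 1.07 ± 0.07 (adjusted p = 2.8e-13) at 6 h and 1.16 at 24 h, so most of the 24 h difference was present by 2 h. In the knockout Psmd11 was at 72.0, 76.3 and 85.7 CPM at 0 h, at 134, 158, 145, 137 and 119 CPM at 2 h, and at 120, 156, 173, 131 and 114 CPM at 6 h. It rose by 0.91 ± 0.07 and 0.94 ± 0.10 there, and by 1.33 at 24 h.

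Psmd7, the partner of the lid's deubiquitinase Psmd14, followed a slower course. In wild type it was at 51.3, 60.5 and 68.4 CPM at 0 h, at 70.2, 89.2, 85.1, 92.1 and 82.6 CPM at 2 h, at 97.2, 103, 101, 117 and 106 CPM at 6 h and at 149, 128, 149, 176 and 187 CPM at 24 h. None of these 4 groups overlapped another, and the difference grew from 0.43 to 0.81 to 1.47 ± 0.10 (adjusted p = 2.8e-11). In the knockout at 24 h Psmd7 was at 183, 153, 160, 207 and 164 CPM against 51.7, 56.3 and 65.0 CPM at 0 h, and rose by 1.68 ± 0.10. Psmd14 itself rose in wild type at 6 h (0.49) and 24 h (1.06), and had a difference of 0.12 at 2 h that did not pass.

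Psmd3, another lid subunit, fell before it rose. It was at 126, 144 and 172 CPM in wild type at 0 h and at 125, 135, 129, 139 and 122 CPM at 2 h. Those ranges overlap, and the fitted difference, within set A, was -0.24 ± 0.06 (adjusted p = 0.00171). It was at 106, 148 and 170 CPM in the knockout at 0 h and at 123, 135, 145, 121 and 107 CPM at 2 h, a difference of -0.32 ± 0.08 (adjusted p = 0.00163). At 24 h Psmd3 had risen by 0.72 in wild type and 0.86 in the knockout. Among the 8 lid genes in wild type 5 rose and 1 fell at 2 h, 7 rose at 6 h and 8 at 24 h, with medians of 0.29, 0.42 and 0.99. Psmd8 was the exception at 6 h, with a difference of 0.06.

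The alpha ring gates the entry to the core. Of its 7 tested genes 6 rose in wild type at each of the earlier times and 7 at 24 h, with medians of 0.26, 0.53 and 1.21. In the knockout 2, 6 and 7 rose, with medians of 0.13, 0.53 and 1.41. Psma1 had the largest 24 h difference: it was at 65.1, 75.7 and 91.5 CPM at 0 h and at 172, 172, 189, 217 and 242 CPM at 24 h in wild type, a log2 difference of 1.43 ± 0.08 (adjusted p = 2.1e-12) with no overlap. In the knockout Psma1 was at 56.6, 73.9 and 89.2 CPM at 0 h and at 197, 141, 185, 247 and 207 CPM at 24 h, and rose by 1.60.

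Psma2 was the alpha subunit that departed from the rest. In wild type it was at 99.3, 119 and 129 CPM at 0 h, at 102, 105, 105, 132 and 107 CPM at 2 h and at 107, 112, 113, 127 and 113 CPM at 6 h. The groups overlapped throughout; Psma2 fell at 2 h (-0.17 ± 0.07, adjusted p = 0.0297) and was not called at 6 h (-0.07, adjusted p = 0.394). At 24 h it was at 152, 117, 179, 197 and 244 CPM and had risen by 0.72.

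In the beta ring most genes were uncalled at 2 h. Of its 7 tested genes 2 rose and 1 fell at 2 h in wild type, 4 rose and 1 fell at 6 h, and 7 rose at 24 h, with medians of 0.06, 0.32 and 1.0. In the knockout 1 rose and 1 fell at 2 h, 3 rose at 6 h and 7 at 24 h (medians 0.06, 0.20 and 1.39). Whether beta genes moved less than the other members was not tested.

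Among the noncatalytic beta subunits, Psmb3 fell first. In wild type it was at 90.1, 101 and 109 CPM at 0 h, at 70.6, 83.1, 84.4, 94.1 and 80.1 CPM at 2 h, and at 136, 166, 163, 148 and 166 CPM at 24 h. Most 2 h libraries were below the whole 0 h range and all 24 h libraries above it: the difference was -0.35 ± 0.07 (adjusted p = 1.1e-04) at 2 h and 0.72 at 24 h. In the knockout the 2 h libraries, at 76.6, 82.0, 77.2, 84.6 and 77.8 CPM, were all below the 0 h range of 87.2, 105 and 111 CPM, and Psmb3 fell by 0.39 ± 0.07 (adjusted p = 4.1e-05) on the log2 scale.

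Psmb1 was flatter. It was at 149, 165 and 183 CPM in wild type at 0 h, at 129, 137, 123, 157 and 144 CPM at 6 h and at 159, 168, 190, 177 and 182 CPM at 24 h. It fell at 6 h (-0.26 ± 0.07, adjusted p = 0.00112) and rose slightly at 24 h (0.18 ± 0.07, adjusted p = 0.0315), with overlapping groups both times. That last call was lost without replicate 3, 4 or 5 at 24 h, without the set term (adjusted p = 0.0503), with sets B and C alone (0.0909) and without the filter on low counts (0.212). In the knockout Psmb1 was at 131, 158 and 197 CPM at 0 h, at 140, 163, 160, 135 and 125 CPM at 6 h and at 188, 183, 183, 184 and 184 CPM at 24 h; the 6 h difference of -0.24 did not pass (adjusted p = 0.0641) and the 24 h difference was 0.36 ± 0.09 (adjusted p = 0.00102). Psmb4 in the knockout at 6 h, at 113, 151, 152, 119 and 105 CPM, lay within its 0 h range of 96.9, 118 and 150 CPM apart from 2 libraries slightly above it, with a difference of -0.05.

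The 3 catalytic subunits had their largest differences at 24 h. Psmb5, which cuts after hydrophobic residues, was at 38.9, 44.3 and 55.7 CPM in wild type at 0 h, at 57.8, 49.1, 49.6, 58.5 and 57.4 CPM at 2 h, at 63.0, 59.9, 67.5, 71.0 and 62.7 CPM at 6 h and at 86.3, 86.0, 117, 95.5 and 107 CPM at 24 h. The 6 and 24 h libraries lay above all 0 h libraries, and Psmb5 rose by 0.30 ± 0.09 (adjusted p = 0.00601), 0.60 ± 0.09 (1.3e-06) and 1.14 ± 0.10 (4.5e-09). In the knockout Psmb5 was at 32.2, 38.9 and 53.0 CPM at 0 h and at 49.9, 63.6, 59.5, 50.7 and 49.6 CPM at 2 h, then at 58.7, 79.0, 77.2, 65.5 and 47.0 CPM at 6 h. By 24 h its libraries had 113, 122, 97.7, 113 and 124 CPM. It rose there by 0.41 ± 0.12 (adjusted p = 0.00613), 0.70 ± 0.15 (8.8e-04) and 1.58 ± 0.12 (2.9e-10).

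Psmb6, which cuts after acidic residues, was at 49.99, 67.3 and 73.2 CPM in wild type at 0 h, at 58.4, 64.7, 69.5, 78.7 and 82.3 CPM at 2 h, at 81.3, 85.5, 80.6, 91.9 and 66.6 CPM at 6 h and at 101, 105, 127, 125 and 141 CPM at 24 h. Only the 24 h group was clear of the 0 h range: Psmb6 was not called at 2 h (0.06, adjusted p = 0.533), rose at 6 h (0.32 ± 0.08, adjusted p = 0.00136) and rose at 24 h (1.0 ± 0.11, adjusted p = 1.3e-07). In the knockout it was at 42.3, 64.8 and 78.0 CPM at 0 h, at 62.9, 78.1, 86.4, 58.2 and 71.7 CPM at 2 h, at 72.6, 90.0, 92.4, 72.0 and 58.6 CPM at 6 h and at 137, 146, 142, 160 and 162 CPM at 24 h. It rose at 24 h by 1.45 ± 0.12 (adjusted p = 2.0e-09), and its 2 and 6 h differences of 0.06 and 0.20 did not pass.

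Psmb7, which cuts after basic residues, was at 25.9, 36.1 and 47.0 CPM in wild type at 0 h, at 38.2, 35.2, 38.3, 47.3 and 46.7 CPM at 2 h, at 48.4, 47.5, 53.0, 56.0 and 48.4 CPM at 6 h and at 68.3, 70.1, 68.3, 96.2 and 104 CPM at 24 h. Its difference was not called at 2 h (0.18, adjusted p = 0.112) and was 0.53 ± 0.09 (9.9e-06) at 6 h and 1.23 ± 0.15 (4.5e-07) at 24 h. The 24 h difference was 1.87 within set B and 0.79 within set C. In the knockout Psmb7 was at 28.1, 34.7 and 45.3 CPM at 0 h, at 42.1, 48.8, 54.3, 37.8 and 35.4 CPM at 2 h, at 50.4, 63.7, 66.8, 48.2 and 42.3 CPM at 6 h and at 99.6, 79.9, 75.5, 125 and 130 CPM at 24 h. It rose by 1.67 ± 0.13 (adjusted p = 7.0e-10) at 24 h, with 2.03 in set B and 1.32 in set C.

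**Figure D3:**
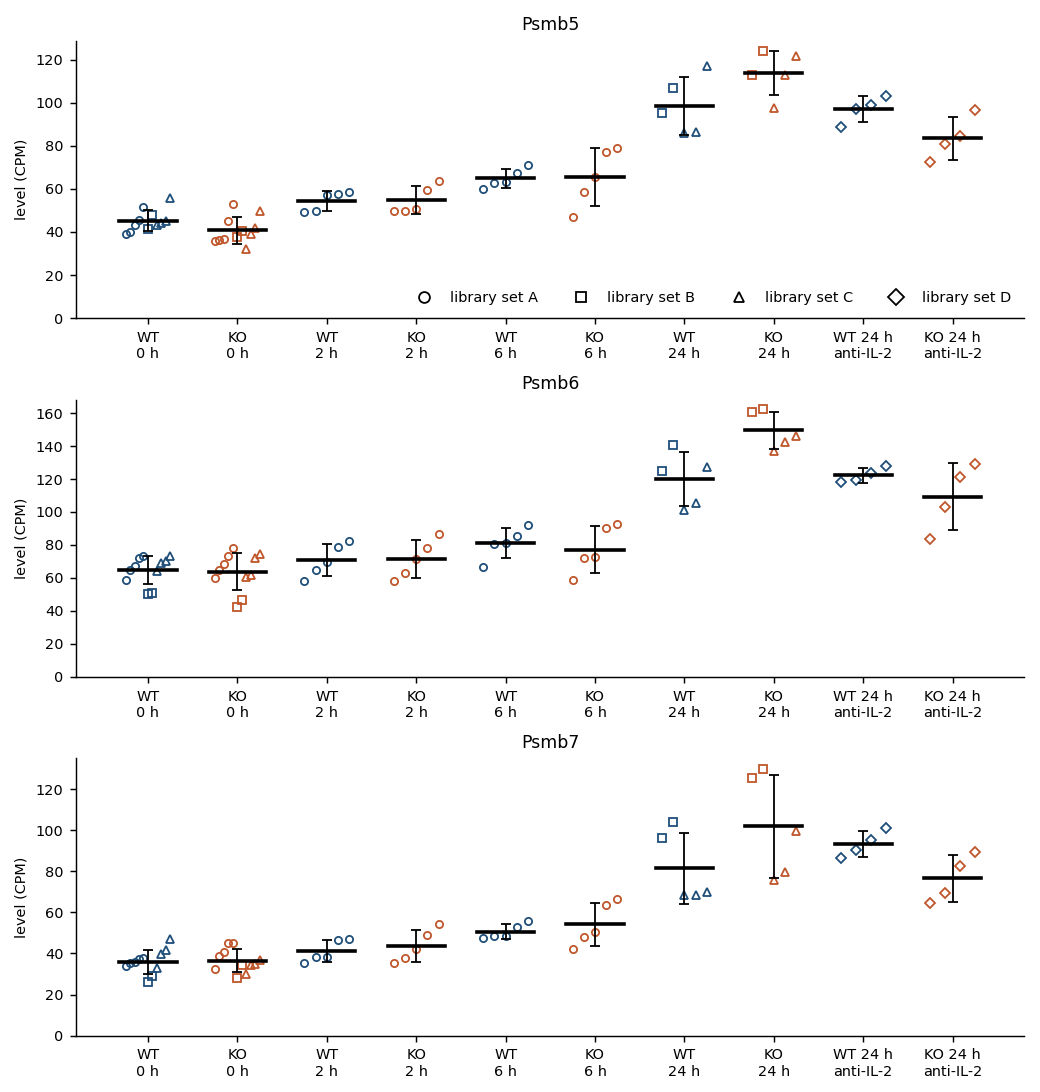
Level per library, in CPM, of the catalytic subunits Psmb5, Psmb6 and Psmb7 by group, with mean and SD; each point is 1 library. In each gene all 24 h libraries without anti-IL-2 are above all unstimulated ones, with wild-type Psmb7 between 68.3 and 104 CPM against at most 47.0 CPM at 0 h.

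The 3 assembly chaperones, which help build the base and leave the finished complex, had small medians early, with members on both sides of 0: none rose at 2 h, 1 rose and 1 fell at 6 h, and 3 rose at 24 h in wild type, with medians of 0.01, 0.15 and 0.47. Psmd9 was at 18.5, 22.1 and 27.8 CPM in wild type at 0 h, at 18.1, 17.7, 21.3, 24.3 and 24.1 CPM at 2 h, at 19.5, 17.6, 13.6, 20.8 and 14.8 CPM at 6 h and at 32.8, 18.8, 24.2, 28.0 and 29.2 CPM at 24 h. It was not called at 2 h (-0.18, adjusted p = 0.185), fell at 6 h (-0.41 ± 0.12, adjusted p = 0.00517) and rose at 24 h (0.40 ± 0.13, adjusted p = 0.0118), a call lost without replicate 1 at 24 h (adjusted p = 0.0692). In the knockout Psmd9 was at 13.7, 19.8 and 24.2 CPM at 0 h and at 17.5, 16.2, 22.2, 21.7 and 17.7 CPM at 6 h, a difference of -0.15 that did not pass. Groups overlapped at 0 and 6 h in both genotypes.

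Psmd5 fell at 2 h in the knockout, from 42.4, 49.6 and 66.5 CPM at 0 h to 47.7, 40.6, 36.6, 33.2 and 39.7 CPM (-0.36 ± 0.10, adjusted p = 0.00423). In wild type Psmd5 was at 42.2, 49.4 and 65.3 CPM at 0 h and at 50.8, 51.5, 41.6, 51.2 and 43.7 CPM at 2 h, a difference of 0.01. Psmd10, known as gankyrin, was at 14.8, 19.8 and 22.9 CPM in the knockout at 0 h and at 24.8, 25.4, 15.9, 23.5 and 23.1 CPM at 24 h, with 1 library inside the 0 h range. Its difference was 0.39 ± 0.14 (adjusted p = 0.0193), and the call was lost without the filter on low counts (0.0605) and without replicate 1, 2 or 4 at 24 h.

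Per kilobase of exon, the levels of the subunits that make up the particle were within an order of magnitude of each other. Over the 31 subunits other than Psma8, Psmb11 and the assembly chaperones, mean levels in wild type at 0 h ran from 9.67 CPM per kb for Psmd1 to 62.1 CPM per kb for Psma6, a ratio of 6.43, with a median of 35.4. At 24 h they ran from 23.8 CPM per kb for Psmb7 to 123 CPM per kb for Psma6, a ratio of 5.16, with a median of 64.0. The SD of the log2 level between subunits was 0.71 at 0 h and 0.65 at 24 h. The subunit at the bottom of the order at 0 h, Psmd1, shared the largest 24 h difference with Psmd7.

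No constitutive proteasome gene was called between the genotypes at any time. With edgeR's quasi-likelihood test, 0 members were called between knockout and wild type at 0 h (0.633% of all genes were called), at 2 h (0.0647%), at 6 h (0.0306%), at 24 h (0.372%) or at 24 h with anti-IL-2 (0.350%). At an unadjusted p under 0.05 there were 2, 8, 0, 3 and 3 members, in that order, beside 10.4%, 13.1%, 5.68%, 11.7% and 9.48% of all genes. DESeq2 and limma voom also called 0 at 0 h, 2 h, 6 h and with anti-IL-2. At 24 h they called 1 and 3 of the 34 members higher in the knockout, among 240 and 976 genes in all. The 976 genes called by voom were of 12906 tested, and whether members differed from all genes in this was not tested. The members' median difference, knockout minus wild type, was -0.05, -0.10, -0.08, 0.09 and -0.03 on the log2 scale; 24, 29 and 29 of the 34 members were below 0 at 0, 2 and 6 h, and 24 were above 0 at 24 h. The 6 h median was 0.01 without knockout replicate 5. Within sets the median was -0.02, -0.07 and -0.05 at 0 h (A, B and C) and 0.01 and 0.15 at 24 h (B and C).

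By edgeR's quasi-likelihood test the smallest p at 0 h was that of Psmb2, a noncatalytic beta subunit (-0.12 ± 0.05, adjusted p = 0.382). Its median was 56.3 CPM in the knockout against 64.2. Psmd8 (-0.11, adjusted p = 0.401) and Psmb5 (-0.15 ± 0.08, adjusted p = 0.484) followed. At 2 h Psma6, an alpha subunit, was at 78.9, 83.6, 89.7, 80.0 and 75.05 CPM in the knockout and at 93.6, 104, 91.8, 116 and 89.3 CPM in wild type, overlapping narrowly, with a difference of -0.29 ± 0.08 (adjusted p = 0.212). Psmd5 (-0.28 ± 0.10, adjusted p = 0.281) and Psmb2 (-0.24 ± 0.09, adjusted p = 0.315) came next. Psmb2 was at 79.4, 75.8, 76.9, 59.2 and 58.0 CPM in the knockout at 2 h and at 77.8, 81.2, 81.6, 92.2 and 77.4 CPM in wild type.

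At 6 h the knockout libraries were spread on both sides of the wild-type ones. Psma1 was at 96.5, 141, 142, 105 and 80.8 CPM in the knockout and at 125, 113, 135, 141 and 134 CPM in wild type, a difference of -0.21 ± 0.15 (adjusted p = 0.942). Psmd5 (-0.20 ± 0.11, adjusted p = 0.911) and Psmd11 (-0.15 ± 0.12, adjusted p = 0.952) also had wide errors.

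At 24 h the smallest p-values belonged to Psmb6 (0.31 ± 0.09, adjusted p = 0.158), Psmb7 (0.31 ± 0.09, adjusted p = 0.187) and Psma2 (0.27 ± 0.12, adjusted p = 0.404), all higher in the knockout. Psmb6 in the knockout, from 137 to 162 CPM, overlapped wild type, from 101 to 141 CPM, only at the edge. The difference was of like size within sets, 0.28 and 0.36 for Psmb6 and 0.35 and 0.29 for Psmb7 in sets B and C. With anti-IL-2 the catalytic genes lay the other way: Psmb7 was at 82.5, 64.6, 89.4 and 69.5 CPM in the knockout and at 86.2, 90.2, 101 and 95.4 CPM in wild type (-0.29 ± 0.10, adjusted p = 0.328). Psmb5 (-0.22 ± 0.09, adjusted p = 0.439) and Psma2 (-0.17 ± 0.08, adjusted p = 0.525) followed.

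**Figure D4:**
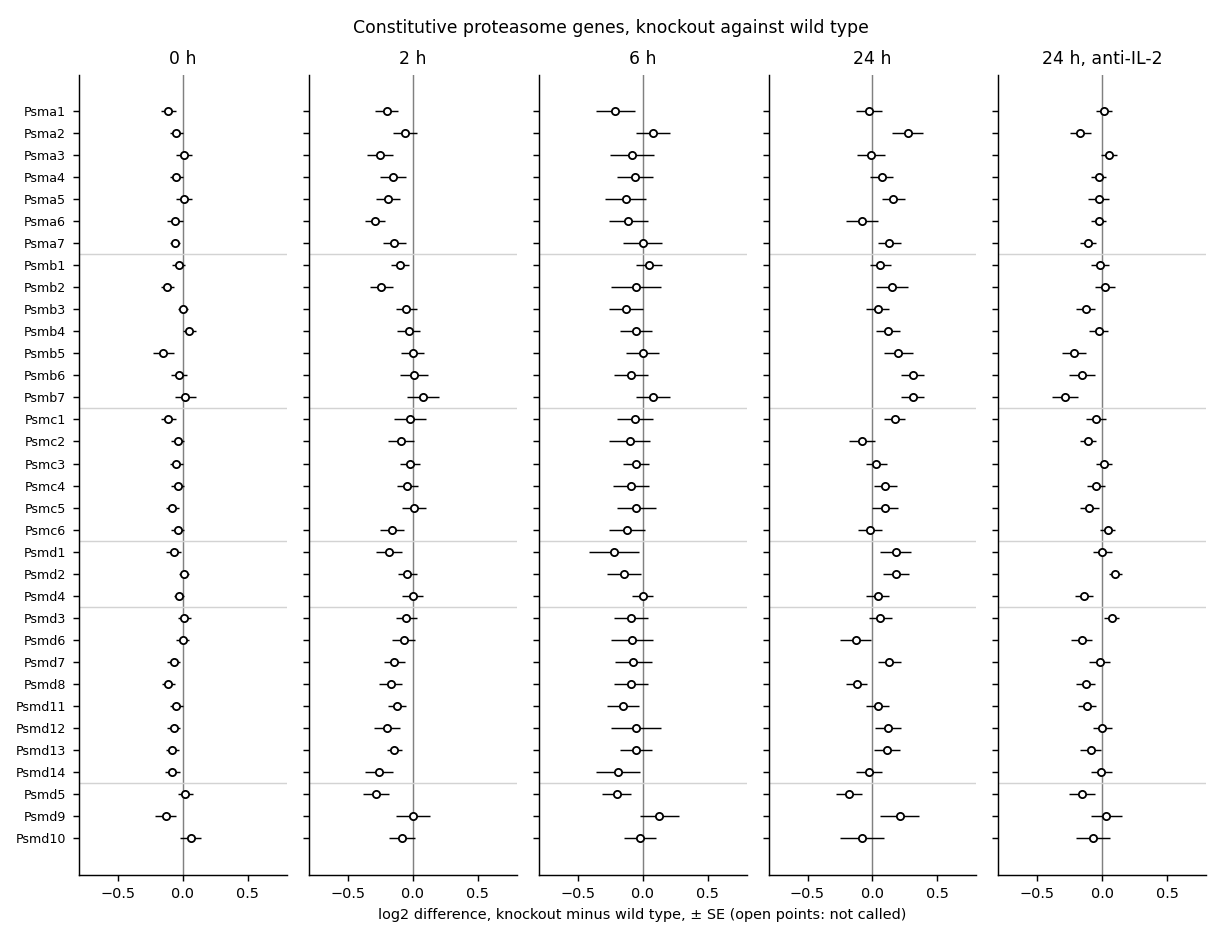
Log2 difference, knockout minus wild type, of each tested constitutive proteasome gene at each time without the antibody and, at 24 h, under anti-IL-2; points are edgeR estimates with standard errors, and open points did not pass an adjusted p of 0.05. All points are open, with medians from -0.10 at 2 h to 0.09 at 24 h.

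The change after stimulation was compared between the genotypes next. The genotype by time interaction of edgeR's quasi-likelihood test called 0 members at 2, 6 and 24 h, where it called 0, 0 and 17 of all genes (0.113% at 24 h); DESeq2 called 0 members too. At an unadjusted p under 0.05 there were 2, 0 and 7 members, beside 11.1%, 6.55% and 11.9% of all genes. The smallest p-values at 24 h were those of Psmb5 (0.40 ± 0.14, adjusted p = 0.239), Psmb6 (0.38 ± 0.15, adjusted p = 0.300) and Psmb2 (0.32 ± 0.14, adjusted p = 0.338), each with the larger increase in the knockout. At 2 h they were those of Psmd5 (-0.30 ± 0.11, adjusted p = 0.294), Psma3 (-0.26) and Psma6 (-0.22), and at 6 h those of Psmd5 (-0.21 ± 0.11, adjusted p = 0.776), Psmd9 (0.27) and Psma2.

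At 24 h the constitutive sum with anti-IL-2 was close to that of stimulation alone, though anti-IL-2 and set D cannot be told apart. Wild-type libraries summed to 5496 ± 172 CPM (SD, n = 4) and knockout libraries to 5339 ± 206 CPM (n = 4), or 1.94 and 1.93 times the 0 h means, against 1.82 and 1.98 times without the antibody. In wild type 0 of 34 members were called by edgeR's quasi-likelihood test (4.40% of all genes were), 2 had an unadjusted p under 0.05 (as did 20.5% of all genes), DESeq2 called 0, and the median difference was 0.06. Psmd1 had the largest difference, with 226, 207, 205 and 235 CPM under anti-IL-2 against 138, 161, 140, 216 and 219 CPM (0.32 ± 0.14, adjusted p = 0.228). The groups overlapped through the set B libraries 4 and 5. Psmd2, at 430, 449, 438 and 438 CPM against 299, 330, 309, 435 and 423 CPM, showed the same arrangement (0.29 ± 0.12, adjusted p = 0.185), and Psma2, at 216, 202, 213 and 211 CPM, differed by 0.24. At the other end Psmd11 (161, 168, 170 and 186 CPM) and Psmb1 (142, 168, 178 and 174 CPM) were at -0.09 and Psmd5 (63.1, 59.7, 69.2 and 75.1 CPM) at -0.08.

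In the knockout, 2 of the 35 members tested fell under anti-IL-2 and none rose, where 2.90% of all genes fell and 2.37% rose; both were catalytic. Psmb5 was at 84.7, 72.4, 96.5 and 80.8 CPM with the antibody and at 113, 122, 97.7, 113 and 124 CPM without it, and Psmb6 at 103, 121, 129 and 83.7 CPM against 137, 146, 142, 160 and 162 CPM. Neither pair of groups overlapped, though Psmb5 came close at 96.5 against 97.7 CPM; in all 4 members were lower without overlap, beside 5.02% of all genes. The differences were -0.45 ± 0.11 (adjusted p = 0.0290) and -0.45 ± 0.12 (adjusted p = 0.0498). Psmb7, at 82.5, 64.6, 89.4 and 69.5 CPM against 99.6, 79.9, 75.5, 125 and 130 CPM, overlapped and did not pass (-0.41 ± 0.16, adjusted p = 0.172). In wild type the same genes differed by -0.02 (Psmb5), 0.03 (Psmb6) and 0.20 (Psmb7).

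These calls sat at the threshold. With DESeq2's size factors 1 was left, Psmb6 then having an adjusted p of 0.0512, and leaving out single libraries gave 0 to 2 members, with both called only without replicate 3 of the knockout with anti-IL-2. The interaction of genotype and anti-IL-2 called 0 members and 0 genes of all; it was -0.48 ± 0.16 for Psmb6, -0.42 ± 0.15 for Psmb5 and -0.61 ± 0.23 for Psmb7, all with an adjusted p of 1.0, and 3 members, beside 4.4% of all genes, had an unadjusted p under 0.05. At the upper end in the knockout were Psma8 (2.12 ± 1.42, adjusted p = 0.451, at under 1 CPM in all of these libraries), Psmd2 at 489, 449, 472 and 476 CPM (0.22) and Psmd10 at 30.5, 23.1, 27.6 and 22.6 CPM (0.20).

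The immunoproteasome genes, which encode the exchange partners of the catalytic subunits, went the other way early. In wild type at 2 h Psmb8 fell by 1.01, Psmb9 by 1.20 and Psmb10 by 1.10 on the log2 scale, and at 6 h they fell by 1.05, 0.81 and 1.48. At 24 h Psmb8 (-0.18) and Psmb9 (0.04) were not called and Psmb10 had fallen by 0.57. Their summed level was 0.489, 0.470 and 0.783 times the 0 h mean at 2, 6 and 24 h in wild type, and 0.484, 0.598 and 0.939 times in the knockout.

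The log2 ratio of each constitutive subunit to its exchange partner within a library, which depends on neither the scaling between libraries nor the 0 h level, was higher at every later time in wild type; it compares read counts and not levels per length, and its time course was not tested. In wild type Psmb5/Psmb8 was -2.20 ± 0.30 (SD, n = 11) at 0 h, -0.90 ± 0.11 (n = 5) at 2 h, -0.55 ± 0.21 (n = 5) at 6 h and -0.84 ± 0.28 (n = 5) at 24 h. Psmb6/Psmb9 was -0.91 ± 0.16, 0.24 ± 0.11, 0.09 ± 0.12 and 0.13 ± 0.18, and Psmb7/Psmb10 was -1.99 ± 0.17, -0.80 ± 0.07, -0.04 ± 0.33 and -0.09 ± 0.50. With anti-IL-2 the 3 ratios in wild type were -0.46 ± 0.07, 0.57 ± 0.19 and 0.82 ± 0.17 (n = 4). The mean of Psmb6/Psmb9 was highest of these 4 times at 2 h, and that of Psmb7/Psmb10 at 6 h.

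In the knockout the same ratios were -2.44 ± 0.27, -1.19 ± 0.28 and -2.05 ± 0.21 at 0 h (n = 11), again the lowest of the times. Psmb7/Psmb10 had its highest mean without anti-IL-2 at 24 h (0.13 ± 0.43) and not, as in wild type, at 6 h (-0.46 ± 0.32). The wild-type means at 6 and 24 h were close, at -0.04 and -0.09. At 24 h the means in sets B and C were 0.42 and -0.43 in wild type, and 0.45 and -0.09 in the knockout. All 6 h libraries are in set A, and a difference in the time of the highest mean was not tested. The ratio was lower in the knockout in 13 of the 15 comparisons of genotype, though the ratios of a time share their libraries. None passed an exact two-sided permutation test within library sets after Benjamini-Hochberg adjustment over the 15. At 6 h the summed immunoproteasome level was 250 to 365 CPM in the knockout and 190 to 249 CPM in wild type. Psmb5, Psmb6 and Psmb7 differed there by only -0.01, -0.09 and 0.08 on the log2 scale. With anti-IL-2 the immunoproteasome means were close, at 284 and 269 CPM. Psmb5, Psmb6 and Psmb7 then differed by -0.22, -0.18 and -0.29. The smallest p-values were 0.014 for Psmb6/Psmb9 at 0 h (difference -0.28), 0.0317 for Psmb6/Psmb9 at 6 h (-0.56) and 0.0323 for Psmb5/Psmb8 at 0 h (-0.24), each with an adjusted p of 0.162 in the exact permutation tests. At 0 h the Psmb6/Psmb9 difference was -0.02 in set A, -0.84 in set B and -0.33 in set C. The smallest p the exact permutation tests could give was 0.00794 at 2 and 6 h, 0.0167 at 24 h and 0.0286 with anti-IL-2. After adjustment over the 15, no single ratio at these times could pass by itself, however large its difference. The lack of a pass there is therefore not evidence of equal ratios. Only the tests at 0 h, with a smallest possible p of 1.9e-05, could pass alone.

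**Figure D5:**
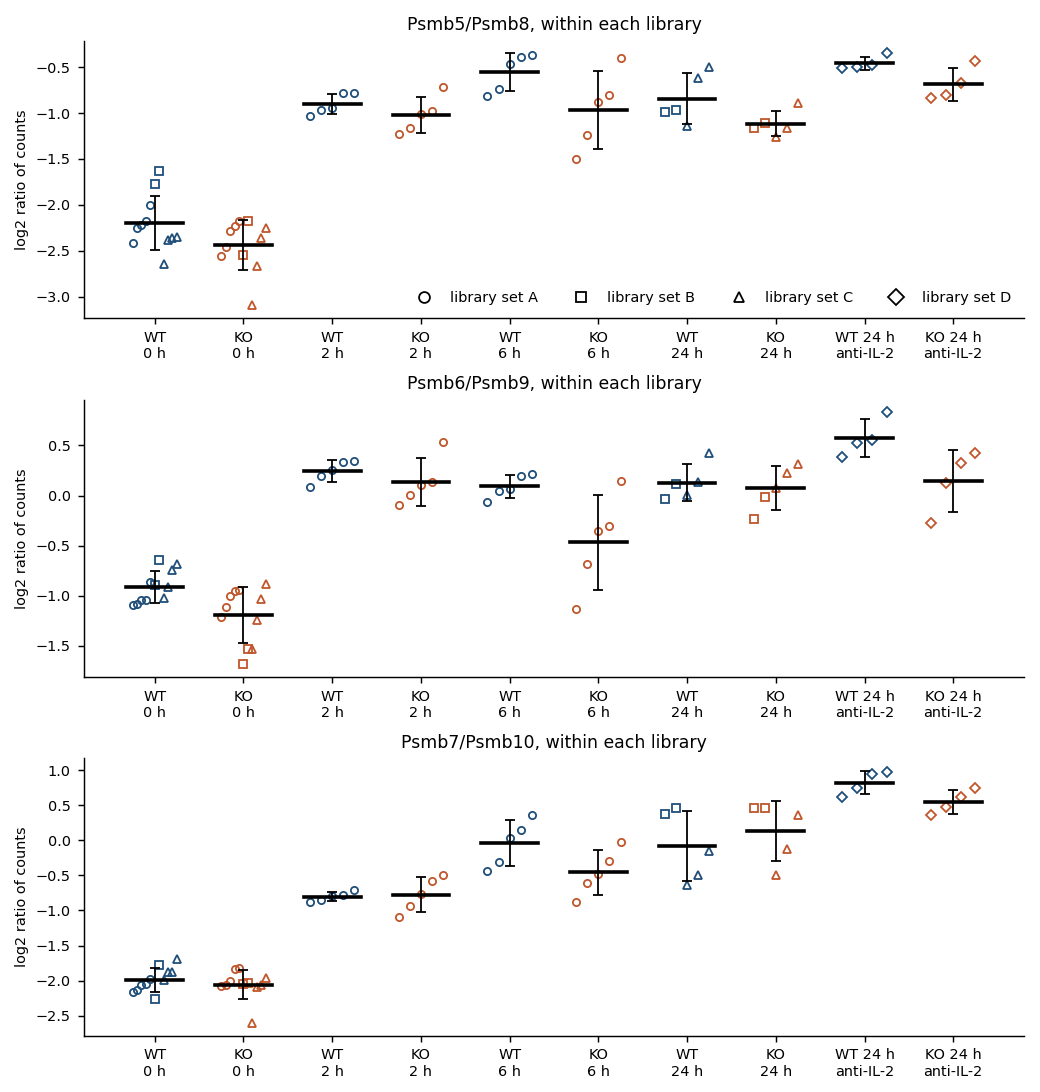
Log2 ratio of reads of each catalytic constitutive subunit to those of its immunoproteasome counterpart (Psmb5/Psmb8, Psmb6/Psmb9, Psmb7/Psmb10) in every library, by group, with mean and SD. All 3 ratios are lowest at 0 h, with wild-type means of -2.20, -0.91 and -1.99, and higher in every stimulated group.

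Other genes of the pathway moved in several directions. Of the 5 activator and inhibitor genes, Psme3, which encodes the nuclear activator, rose in wild type at all 3 times (0.63, 1.08 and 1.20) and Psme4 likewise (0.72, 0.42 and 0.40), while Psme1, a subunit of the interferon-inducible activator, fell at 2 and 6 h (-0.44 and -0.46) and rose at 24 h (0.35). Among the 5 tested core assembly chaperones 1 rose and 3 fell at 2 h, and 5 rose at 6 h and at 24 h: Pomp, the maturation factor of the beta ring, was at -0.11, 0.44 and 1.25, and Psmg1 at -0.67, 0.43 and 1.09. Psmg3 rose at all 3 times (0.70, 1.19 and 1.51). Among 9 factors that associate with the regulatory particle, 6, 7 and 7 rose; the deubiquitinases Uchl5 and Usp14 rose at all times, by 1.52 and 1.10 at 24 h.

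The 8 genes for transcriptional control of the proteasome gave 5 that rose and 2 that fell at 2 h; the counts were 4 and 3 at 6 h and then 2 and 3. Nfe2l1, the transcription factor that restores proteasome gene expression when proteasome activity is low, rose at 2 h (0.67) and 6 h (0.62) and was at 0.13 at 24 h, uncalled. Ddi2, the protease that activates it, went from 1.06 at 2 h to 0.55 and 0.06, and Ngly1, the glycanase that acts before it, fell at all times (-1.01, -1.07 and -0.67). For comparison, the 8 chaperonin genes had medians of 0.27, 0.67 and 1.15, close to those of the proteasome, and the 80 tested cytosolic ribosomal protein genes had medians of -0.29, -0.65 and -0.27.

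Gene profiles over the 10 group means were compared with 1 reference, the median over the members of their mean level in each group. Among 8559 candidates averaging 10 CPM or more, the closest were Spcs3, Srsf1, Rad23b and Rbmxl1 (Pearson r = 0.995 each) and Plscr1 (0.994). Of the members, Psmd12 was closest to that median (r = 0.996), and Psmb1 (0.371), Psma8 (0.424), Psmd9 (0.733) and Psmd4 (0.738) were farthest. Each member is itself part of the median. The group means share libraries across genes, and these correlations are descriptions.

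Since nearly all members rose together, their promoters were searched for 6 short motifs; 29 of the 36 matched a RefSeq window of 300 bases, from 250 before to 50 after the gene's start (GRCm38.p6), searched on both strands. The core of the antioxidant response element, TGACNNNGC, to which Nfe2l1 binds, was in 5 member promoters (17.2%), beside 14.0% of 27025 genes and 17.0% of the 9549 that were tested in wild type at 24 h. CCGGAAG, an ETS motif, was in 10 (34.5%), beside 9.9% of all and 21.3% of tested genes. CCAAT was in 12 (41.4%; 41.1% and 43.0%), GGGCGG in 18 (62.1%; 38.2% and 67.6%), CACGTG in 2 (6.9%; 8.1% and 11.7%) and the nuclear respiratory factor 1 motif in 1 (3.4%; 1.1% and 2.5%). Set against tested genes, shares were close for the antioxidant core, CCAAT and GGGCGG; a match is a string of letters and not a bound site. The ETS motif was in the promoter of Psmd4, which moved little, and not in that of Psmd1, which rose early. Whether the motif goes with an early rise was not tested. Stretches of 60 bases are shown for the catalytic Psmb5 and the ATPase Psmc6 (antioxidant core) and for Psmd11 and Psmc2 (ETS motif). In these stretches the match, on either strand, is in capitals. They lie at chr14:54618008-54618067 (minus strand), chr14:45329574-45329633 (plus), chr11:80428555-80428614 (plus) and chr5:21785166-21785225 (plus), and the match begins 47, 227, 11 and 84 bases before the start.
Psmb5: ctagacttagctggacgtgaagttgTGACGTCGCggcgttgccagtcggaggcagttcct
Psmc6: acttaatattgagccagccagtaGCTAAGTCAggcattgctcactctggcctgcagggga
Psmd11: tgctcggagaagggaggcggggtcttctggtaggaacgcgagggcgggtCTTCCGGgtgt
Psmc2: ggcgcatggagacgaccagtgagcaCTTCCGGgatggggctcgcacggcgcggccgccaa

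Psma8 and Psmb11, the members with tissue-restricted use, were at or near 0. Psma8 had 0 counts in 30 libraries. It reached 5.42 CPM (115 reads) in knockout replicate 10 at 0 h, 1.08 CPM (17 reads) in knockout replicate 3 at 2 h and 5.87 CPM (107 reads) in knockout replicate 3 at 6 h, and did not exceed 0.884 CPM elsewhere. All 3 of these libraries are in set A and hold the same place in the spacing of its library names. Whether they share a source was not tested. Without those 3 libraries, left out after the data were seen, 18 members were called at 2 h, 17 at 6 h and 34 at 24 h in the knockout. These counts join rises and falls. With all libraries, 28.4%, 23.2% and 30.5% of all genes rose at these times and 29.2%, 23.1% and 30.3% fell. Without the 3 libraries, 0 members were called in the genotype comparison at 0 h and in the interactions with time. Psmb11 had 0 counts in 36 libraries and a highest level of 0.670 CPM.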

How the data were processed

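The deposited values are raw read counts per gene in 1 table of 60 libraries of polyA RNA. Per the submitters' processing notes, the authors used FastQC, STAR 2.7.9a, SAMtools, Picard and featureCounts 2.0.1 of Subread with build GRCm39. The strand setting is not given in the sources used here, so reads of overlapping, antisense or near-identical genes are not separated. RNA came from Qiagen or Zymo kits, without a record per library. Symbols and exon lengths came from GENCODE M21 (GRCm38), which named 52081 genes holding 99.57% of counts. Libraries of 1 group always differed beyond counting noise (chi-square of 6.88 or more per degree of freedom), so none was a file deposited again; preparations of 1 sample cannot be told apart this way.

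Each comparison was fitted over its own libraries with edgeR 4.0.16 (R 4.3.3): filterByExpr with a minimum count of 10, TMM, and the robust quasi-likelihood test, adjusted by Benjamini-Hochberg over all genes tested, called under 0.05. The fits at 0 h, at 24 h and over time held the library set as a covariate. The code was checked on simulated counts. CPM use TMM over all libraries, and errors are SD for levels and SE for differences. Ratios of exchanged subunits were tested by enumerating the permutations in Python with numpy 2.4.6. Alternatives used DESeq2 1.42.0 and limma 3.58.1. Values per library are printed for the catalytic subunits, the 3 largest and the 3 smallest differences of each comparison, or the 3 smallest p-values between genotypes. The members, lists and tests were chosen with earlier results of these data known.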

Additional observations from a re-analysis of the deposited data

Results flagged for a closer look

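A sample was marked when its gap to the next was large for the range of its group, by Dixon's 95% criterion, in groups of 4 or 5 libraries; of 224 groups tested 15 were marked, where chance marks about 1 in 20. Wild-type replicate 4 at 2 h accounted for 6 of them, as the highest library: the summed constitutive level (3933 CPM against a group median of 3443), Psma2 (132 CPM), Psmb2 (92.2 CPM), Psmc2 (120 CPM), Psmd1 (165 CPM) and Psmd8 (199 CPM). Without it, 21 members were called at 2 h in wild type. Psma2 was also highest in wild-type replicate 4 at 6 h (127 CPM).

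Psma8 gave 4 of the marks, with 1.08 CPM in knockout replicate 3 at 2 h, 5.87 CPM in knockout replicate 3 at 6 h, 0.708 CPM in knockout replicate 3 at 24 h and 0.354 CPM in wild-type replicate 5 at 6 h. Psmd9 was highest in knockout replicate 3 at 2 h (27.3 CPM), and Psmd10 was lowest in knockout replicate 3 at 24 h (15.9 CPM). Replicate numbers only count libraries within a group. Knockout replicate 3 at 24 h is in set C, and so is not matched to replicate 3 at 2 or 6 h, in set A. The summed immunoproteasome level was lowest in wild-type replicate 2 at 24 h (295 CPM against a median of 388), and the log2 ratio Psmb5/Psmb8 was highest in wild-type replicate 1 with anti-IL-2 (-0.35 against a median of -0.49). No cause was tested for any of these.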

How the results depend on the processing

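The alternatives were DESeq2 size factors or Wald test, limma voom, no low-count filter, no set term, single sets, a 1.5-fold minimum and leaving out libraries. Apart from leaving out single libraries, 131 recomputed counts and ratios stayed. The 8 that moved were counts, which changed by over 1.5 times or to or from 0. With single libraries left out these were 240 and 8. A ratio was taken to stay if it still did not pass, whatever its size or sign. Psmb7/Psmb10 at 24 h, for example, ran from 0.08 to 0.31 between genotypes with single libraries left out. Values of the called members named in the text kept their direction under every alternative run, and their call in 259 cases, with 8 lost, or 212 and 21 with single libraries left out. A median was taken to stay if it shifted by less than the largest SD, within a group, of the members' median per library. By that rule, which a small median can meet even on changing sign, the 92 recomputed medians stayed. With single libraries left out, the median of the members between genotypes at 6 h went from -0.08 to 0.01 without knockout replicate 5. The median under anti-IL-2 in the knockout went from -0.04 to 0.01 without knockout replicate 4 at 24 h. That of the 6 h interaction went from -0.03 to as much as 0.05. The members called between genotypes at 24 h were 1 with the DESeq2 Wald test and 3 with limma voom, all higher in the knockout, against 0. Genes called in all were 240 with the DESeq2 Wald test and 976, of 12906 tested, with limma voom. A 1.5-fold minimum left 3 members at 2 h and 11 at 6 h in wild type, where 17.2% and 16.4% of all genes rose that far. It left 3 at 2 h and 8 at 6 h in the knockout. The shares of all genes that rose there, 28.4% and 23.2%, hold rises of any size, so they are not a like comparison for these counts. Of the members called under anti-IL-2 in the knockout a 1.5-fold minimum left 0. For that last comparison DESeq2 size factors gave 1, and leaving out single libraries 0 to 2, below 2 in 8 of 9 cases. Leaving out 1 library gave 21 to 23, 28 to 29 and 32 to 34 members called at 2, 6 and 24 h in wild type, 16 to 21, 18 to 24 and 33 to 34 in the knockout, and 0 in the interactions and between genotypes at 2, 6 and 24 h and with anti-IL-2 (0 h, with 11 libraries a group, was not run so). The labels carry no replicate numbers. With the spacing of library names in set A as a replicate block, 24 and 28 members were called at 2 and 6 h in wild type. In the knockout 20 and 20 were called, so pairing changed no count by over 1.5 times. Such counts join rises and falls, which were common among all genes in the main fits (30.3% and 33.3% at 2 h in wild type). Depth limits Psma8 and Psmb11 alone among the members. The cause of these shifts was not tested, and the 24 h times rest on 5 libraries from 2 sets.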
